A study of Mus musculus with 6 samples.

Results

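The prostaglandin genes described here are 8 rows of a table of 24421 genes, taken by symbol and not by their values. They are the phospholipase Pla2g4a, the cyclooxygenases Ptgs1 and Ptgs2, the prostaglandin E synthases Ptges, Ptges2 and Ptges3, the degrading dehydrogenase Hpgd and the receptor gene Ptger4. RNA sequencing was used to measure transcript levels in the mouse pancreatic ductal adenocarcinoma (PDAC) cell lines 6499c4, 6419c5 and 2838c3. Each line received 250 nM G-1 or the vehicle DMSO for 16 hours, with 1 library per line and treatment, so each treatment has 3 libraries and each line has 2. G-1 is an agonist of the G protein-coupled estrogen receptor GPER, whose gene Gper1 had 0 reads in all 6 libraries, which allows up to 3 reads in each. The labels describe cultured cells and name no other cell type, and no library repeats a treatment within a line.

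Prostaglandins are lipid signals made in a short chain of steps. Cytosolic phospholipase A2 frees arachidonic acid from membrane lipids, a cyclooxygenase turns it into prostaglandin H2, and terminal synthases convert that intermediate into prostaglandin E2 (PGE2) and other prostanoids. PGE2 leaves the cell, acts on G protein-coupled EP receptors on the same or neighbouring cells, and is inactivated by 15-hydroxyprostaglandin dehydrogenase after uptake. In pancreatic and other epithelial tumours the inducible cyclooxygenase is known as a source of PGE2 that acts on tumour and immune cells.

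The libraries held 5455990 to 8890821 reads in genes, recovered as whole reads from the deposited FPKM values (fragments or reads per kilobase of gene, here scaled by library size factors). In ductal epithelial markers, 8 of 9 had a mean of at least 1 FPKM, with a summed level of 3536 to 5965 FPKM in G-1 libraries and 3534 to 6103 FPKM in vehicle libraries. Within that list Cldn4 averaged 0.478 FPKM, Sox9 1.71 FPKM and Epcam 3.25 FPKM. Markers of macrophages summed to 1.91 to 3.38 FPKM in G-1 libraries and 0.788 to 2.77 FPKM in vehicle libraries. Of that list 1 of 6 markers, Cd68, had a mean of at least 1 FPKM (1.94 FPKM), and Adgre1 was listed at 0. Cd68 had 3.20, 1.18 and 2.07 FPKM in the G-1 libraries of 6499c4, 6419c5 and 2838c3, against 0.788, 1.80 and 2.62 FPKM in vehicle libraries. Fibroblast markers summed to at most 1.05 FPKM in G-1 libraries and 1.11 FPKM in vehicle libraries, with Col1a2, Dcn and Lum listed at 0. Mast cell markers reached at most 0.193 FPKM in G-1 libraries and 0.0632 FPKM in vehicle libraries.

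Over the 6 libraries Ptgs2 ranged from 10.6 to 381 FPKM and Ptgs1 from 2.22 to 31.5 FPKM. Ptges ranged from 0.0320 to 10.5 FPKM and Hpgd from 0 to 3.31 FPKM. The promoters shown are those of Ptgs2, Ptgs1 and Ptges, which separated the lines most widely, and of the dehydrogenase gene Hpgd. They are RefSeq sequences of the GRCm38.p6 build, 300 bases from 250 before to 50 after the annotated start, written along the strand of the gene, with capitals on the motifs that were found. Ptgs2 is at chr1:150099781-150100080 (plus strand), Ptgs1 at chr2:36230176-36230475 (plus), Ptges at chr2:30903248-30903547 (minus) and Hpgd at chr8:56294302-56294601 (plus). The Ptges window surrounds a RefSeq start inside the annotated gene, which spans 30889471 to 30929863. Which starts these lines use was not measured.
Ptgs2: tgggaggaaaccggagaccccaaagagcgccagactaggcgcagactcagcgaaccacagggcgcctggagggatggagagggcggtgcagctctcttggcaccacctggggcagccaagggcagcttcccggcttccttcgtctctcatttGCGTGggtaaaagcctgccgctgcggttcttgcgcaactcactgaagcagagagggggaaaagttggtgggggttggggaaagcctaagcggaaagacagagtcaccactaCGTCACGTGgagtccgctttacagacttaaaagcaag
Ptgs1: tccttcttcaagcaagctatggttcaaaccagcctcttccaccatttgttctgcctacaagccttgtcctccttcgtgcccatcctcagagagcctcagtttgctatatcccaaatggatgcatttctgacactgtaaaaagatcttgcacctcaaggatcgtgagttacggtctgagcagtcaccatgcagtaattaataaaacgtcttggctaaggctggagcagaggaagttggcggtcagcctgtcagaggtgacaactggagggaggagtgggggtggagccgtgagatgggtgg
Ptges: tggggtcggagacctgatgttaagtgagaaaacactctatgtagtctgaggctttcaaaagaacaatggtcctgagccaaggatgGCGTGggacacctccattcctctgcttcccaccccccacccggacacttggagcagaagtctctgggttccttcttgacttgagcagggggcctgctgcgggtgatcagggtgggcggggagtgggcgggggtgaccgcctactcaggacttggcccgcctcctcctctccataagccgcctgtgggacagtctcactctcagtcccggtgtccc
Hpgd: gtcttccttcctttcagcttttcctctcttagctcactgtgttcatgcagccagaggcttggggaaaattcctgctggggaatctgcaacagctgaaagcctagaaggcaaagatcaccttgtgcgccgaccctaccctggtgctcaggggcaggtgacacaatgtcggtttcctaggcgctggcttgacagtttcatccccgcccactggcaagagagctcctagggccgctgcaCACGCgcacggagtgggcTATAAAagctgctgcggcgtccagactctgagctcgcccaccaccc

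Motifs were searched on both strands in the promoters of all 8 genes. The cAMP response element core TGACG was found in Ptgs2 and Ptges3, and in 20.8% of 32851 promoters. The E-box CACGTG was found in Ptgs2 and Ptges2, and in 7.15% of all promoters. In Ptgs2 the core (positions 264 to 268 of the window, on the minus strand) and the E-box (positions 267 to 272) overlap. Both lie just after the annotated start, which may not be the start used in these lines. The dioxin response core GCGTG was found in 6 of the 8 genes and in 32.4% of all promoters, and the TATA box TATAAA in the Hpgd window, in a second Pla2g4a entry and in 13.6% of all promoters. The AP-1 site TGANTCA was found in no window of the 8 genes, both Pla2g4a entries included, and in 7.81% of all promoters. None of these motifs was found in Ptgs1 or Ptger4. These matches describe the letters of the windows, and binding was not measured.

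The lines differed widely in these genes, and Ptgs2 differed most. Ptgs2 was lowest in 6499c4 and highest in 6419c5. Ptgs1 was also lowest in 6499c4. Ptges and Hpgd were at or near 0 in 2838c3, and Ptger4 was highest in 6499c4. Levels were compared as log2(FPKM + 1) in limma with treatment as a covariate, from 2 libraries per line, and a difference was called at an adjusted p under 0.05 (Benjamini-Hochberg, over the 10748 genes that averaged 1 FPKM or more). All 8 genes passed that level filter, Hpgd at a mean of 1.16 FPKM that came mainly from 6419c5. Hpgd passed only through 6419c5, so its calls in the counts below depend on that line. Between 6419c5 and 2838c3, 7 of the 8 were called, 5 higher and 2 lower in 6419c5, where 51.5% of all genes were called (26.2% higher, 25.3% lower). Between 6499c4 and 2838c3, 6 were called, 3 higher and 3 lower in 6499c4, against 55.6% of all genes (26.6% higher, 28.9% lower). Between 6499c4 and 6419c5, 6 were called, 2 higher and 4 lower in 6499c4, against 45.0% of all genes (21.3% higher, 23.7% lower). Pla2g4a, Ptgs1, Ptgs2, Ptges and Ptger4 were called in all 3 pairs, as were 16.4% of all genes. In bulk cultures, fewer cells with a transcript and less of it per cell cannot be told apart.

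**Figure D1:**
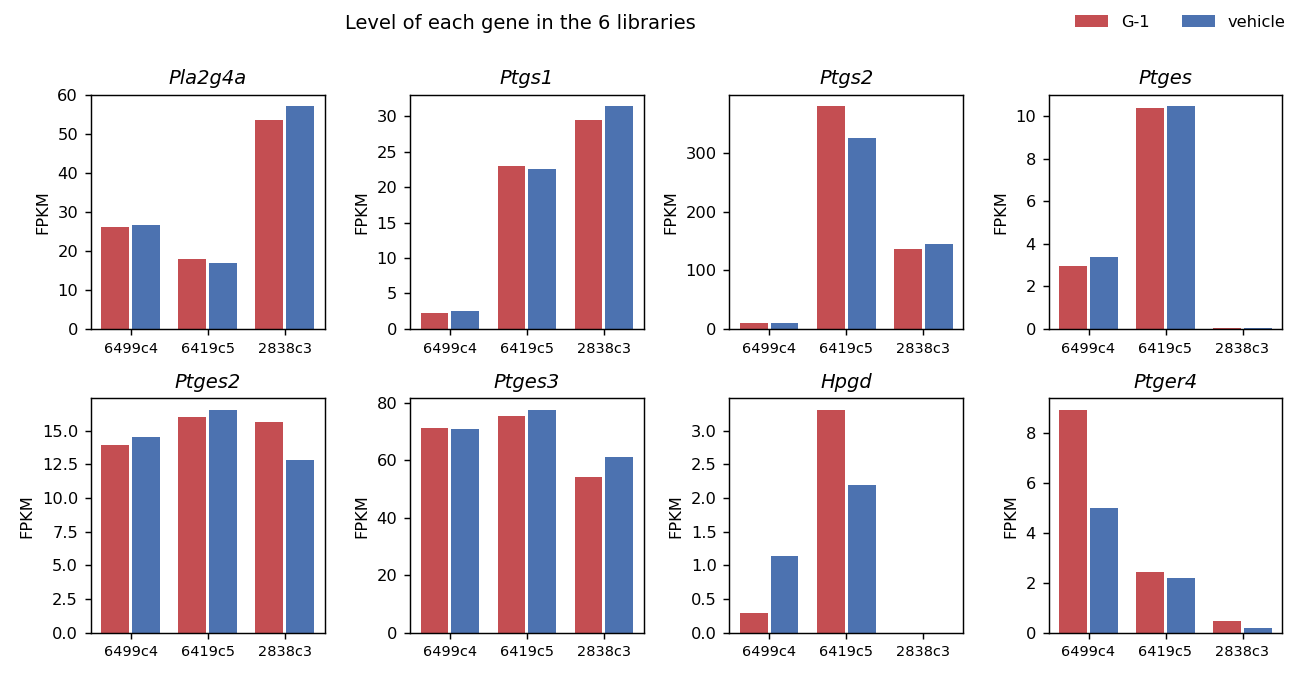
Level in FPKM (linear axes from 0, a scale for each gene) of the prostaglandin genes, with 1 bar per library for G-1 and vehicle in each line. Ptgs2 lies between 10.6 and 10.8 FPKM in 6499c4 and at 326 FPKM or above in 6419c5, while Ptges2 stays between 12.8 and 16.6 FPKM.

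Arachidonate release was represented by Pla2g4a, the cytosolic phospholipase A2 (GRCm38 chromosome 1, 149829618 to 149961290, minus strand). It had 26.2, 17.9 and 53.6 FPKM in the G-1 libraries of 6499c4, 6419c5 and 2838c3, against 26.5, 16.9 and 57.2 FPKM in their vehicle libraries. The 2838c3 libraries were the highest and the 6419c5 libraries were the lowest. On the log2 scale it was lower in 6419c5 than in 2838c3 (log2 difference −1.61 ± 0.08, SE, adjusted p = 1.27e-05) and lower in 6499c4 than in 2838c3 (log2 difference −1.04 ± 0.08, adjusted p = 5.98e-05). It was higher in 6499c4 than in 6419c5 by 0.57 ± 0.08 (adjusted p = 0.0014). As read counts per library scale, 6419c5 held 0.313 times the Pla2g4a reads of 2838c3 (exact 95% interval 0.287 to 0.341, counting error only).

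Ptgs2, the inducible cyclooxygenase (chromosome 1, 150100031 to 150108227, plus strand), stands on the same chromosome as Pla2g4a. It had 10.6, 381 and 136 FPKM in the G-1 libraries of 6499c4, 6419c5 and 2838c3, against 10.8, 326 and 145 FPKM in their vehicle libraries. The 6419c5 libraries were the highest and the 6499c4 libraries were the lowest. Its log2 level was higher in 6419c5 than in 2838c3 by 1.32 ± 0.09 (adjusted p = 4.77e-05). It was lower in 6499c4 than in 2838c3 (log2 difference −3.59 ± 0.09, adjusted p = 3.96e-07) and lower in 6499c4 than in 6419c5 (log2 difference −4.91 ± 0.09, adjusted p = 1.39e-07). In reads, 6499c4 held 0.0307 times the level of 6419c5 (0.0285 to 0.0330), or 32.6-fold less, on 764 against 18234 reads. Ranked by the range of its line means, Ptgs2 was 33rd among the 10748 genes, and 0.307% of them had at least this range. The endothelial marker list also moved with 6419c5, where it summed to 1.13 FPKM with G-1 and 1.82 FPKM with vehicle, nearly all of it Cdh5, and to at most 0.129 FPKM with G-1 and 0.239 FPKM with vehicle in the other lines. Its part in the Ptgs2 result was not tested.

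Ptgs1, the constitutive cyclooxygenase (chromosome 2, 36230426 to 36252272, plus strand), had 2.22, 22.9 and 29.4 FPKM in the G-1 libraries of 6499c4, 6419c5 and 2838c3, against 2.48, 22.6 and 31.5 FPKM in their vehicle libraries. The 6499c4 libraries were far below the others. Ptgs1 was lower in 6499c4 than in 2838c3 (log2 difference −3.23 ± 0.10, adjusted p = 8.34e-07) and lower in 6499c4 than in 6419c5 (log2 difference −2.83 ± 0.10, adjusted p = 2.32e-06). The smaller difference between 6419c5 and 2838c3, −0.40 ± 0.10 (adjusted p = 0.0123), was no longer called when any of the 4 libraries of those lines was left out (−0.47 to −0.34, adjusted p = 0.054 to 0.116). The tuft cell marker list moved with Ptgs1: it summed to 4.34, 27.01 and 31.4 FPKM in the G-1 libraries of 6499c4, 6419c5 and 2838c3, against 4.06, 27.6 and 31.9 FPKM in vehicle libraries. Of that list 1 of 5 markers, Avil, reached 1 FPKM, Dclk1 reached at most 0.106 FPKM, and Pou2f3, Trpm5 and Gnat3 were listed at 0. Its part in the Ptgs1 result was not tested. Ptgs1 shares 148 exon bases with Gm43621 on the opposite strand.

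Ptgs2 exceeded Ptgs1 in each library, but by different factors. The ratio of their FPKM values was 4.79, 16.6 and 4.62 in the G-1 libraries of 6499c4, 6419c5 and 2838c3, against 4.37, 14.4 and 4.60 in vehicle libraries. Their sum was 12.8, 404 and 165 FPKM in the G-1 libraries of 6499c4, 6419c5 and 2838c3, against 13.3, 348 and 176 FPKM in vehicle libraries. Both genes were lowest in 6499c4, and 6419c5 and 2838c3 had them in different proportions.

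The 3 prostaglandin E synthase genes had unlike patterns. Ptges, the inducible microsomal synthase that works together with the inducible cyclooxygenase (chromosome 2, 30889471 to 30929863, minus strand), had 2.98, 10.4 and 0.0321 FPKM in the G-1 libraries of 6499c4, 6419c5 and 2838c3, against 3.38, 10.5 and 0.0320 FPKM in vehicle libraries. In 2838c3 these values are 1 read with G-1 and 1 read with vehicle, while 6419c5 had 206 and 273 reads and 6499c4 had 87 and 113 reads. Ptges was higher in 6419c5 than in 2838c3 by 3.47 ± 0.15 (adjusted p = 6.07e-06) and higher in 6499c4 than in 2838c3 by 2.02 ± 0.15 (adjusted p = 4.45e-05). It was lower in 6499c4 than in 6419c5 (log2 difference −1.45 ± 0.15, adjusted p = 0.000287). The + 1 in the log2 scale understates the change of so low a gene: the read ratio of 6419c5 to 2838c3 was 325, with a counting interval of 89.5 to 2693. The line 2838c3 had more Ptgs2 than 6499c4 and almost no Ptges mRNA.

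The constitutive synthase genes differed far less. Ptges2, the membrane-associated synthase (chromosome 2, 32395896 to 32405772, plus strand), had 13.9, 16.0 and 15.7 FPKM in the G-1 libraries of 6499c4, 6419c5 and 2838c3, against 14.5, 16.6 and 12.8 FPKM in vehicle libraries. It was called in no line pair, with a difference of 0.19 between 6419c5 and 2838c3 (95% interval −0.08 to 0.46, adjusted p = 0.21), 0.01 between 6499c4 and 2838c3 (−0.26 to 0.28, adjusted p = 0.971) and −0.18 between 6499c4 and 6419c5 (−0.45 to 0.09, adjusted p = 0.232). Ptges3, the cytosolic synthase that is also the co-chaperone p23 (chromosome 10, 128058954 to 128077272, plus strand), had 71.2, 75.5 and 54.1 FPKM in the G-1 libraries of 6499c4, 6419c5 and 2838c3, against 71.0, 77.6 and 61.0 FPKM in vehicle libraries. It was higher in 6419c5 than in 2838c3 by 0.41 ± 0.08 (adjusted p = 0.00361). Its difference of 0.30 ± 0.08 between 6499c4 and 2838c3 (adjusted p = 0.0118) was lost without the G-1 library of 2838c3 (adjusted p = 0.123) or of 6499c4 (adjusted p = 0.0841). Between 6499c4 and 6419c5 it differed by −0.10 ± 0.08 (adjusted p = 0.294). A processed Ptges3 pseudogene is annotated, and how reads shared with it were counted is unstated in the labels. The length implied by the Ptges2 values was 1952 bases, against 4978 bases in the longest matched RefSeq transcript, so its level beside other genes depends on the authors' length. As shares of FPKM, Ptges made up 3.38%, 10.2% and 0.0460% of the sum of the 3 synthases in the G-1 libraries of 6499c4, 6419c5 and 2838c3, against 3.81%, 10.01% and 0.0434% in vehicle libraries.

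**Figure D2:**
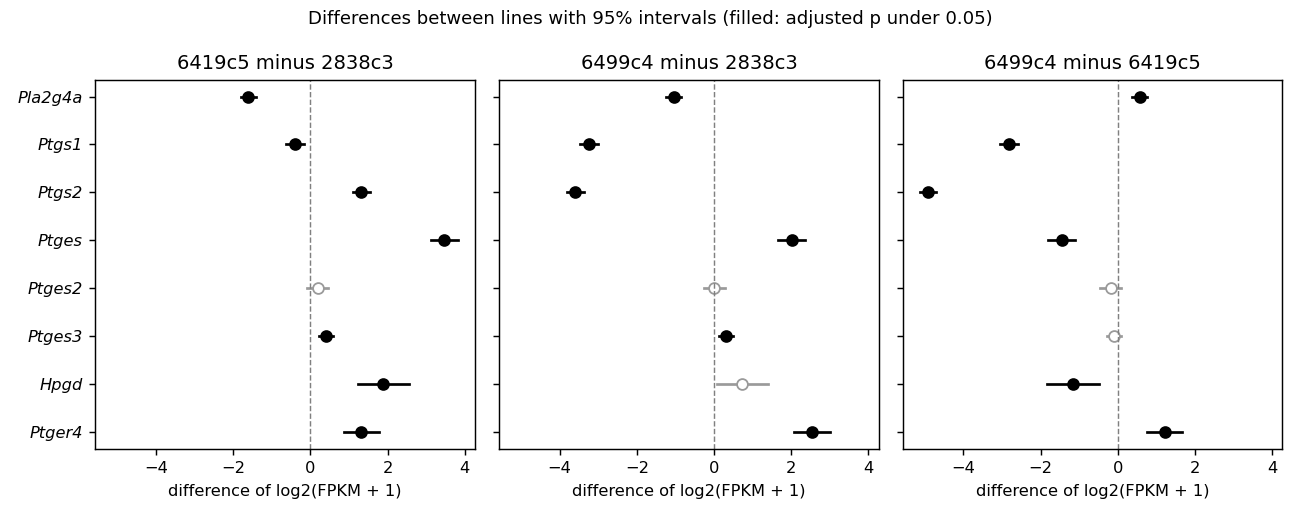
Difference between lines in log2(FPKM + 1) for each prostaglandin gene, 6419c5 minus 2838c3, 6499c4 minus 2838c3 and 6499c4 minus 6419c5, with 95% intervals from limma and filled points for adjusted p under 0.05. Ptgs2 reaches −4.91 between 6499c4 and 6419c5, and the intervals of Ptges2 cross 0 in all 3 pairs.

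Hpgd, the 15-hydroxyprostaglandin dehydrogenase that inactivates PGE2 (chromosome 8, 56294585 to 56321043, plus strand), had 0.290, 3.31 and 0 FPKM in the G-1 libraries of 6499c4, 6419c5 and 2838c3, against 1.14, 2.20 and 0 FPKM in vehicle libraries. These are 4, 31 and 0 reads with G-1, against 18, 27 and 0 reads with vehicle. The 6419c5 libraries were above all others. Against a floor of 3 reads per library, the line mean of Hpgd was at least 13.5-fold higher in 6419c5 than in 2838c3. It was at least 3.51-fold higher in 6499c4 than in 2838c3, and the 6499c4 mean rests mainly on its vehicle library. With line means of 2.76 FPKM in 6419c5, 0.717 FPKM in 6499c4 and 0 in 2838c3, Hpgd passed the level filter only through 6419c5. Whether it was tested thus depended on the line that was high. On the log2 scale the difference between 6419c5 and 2838c3 was called (1.89 ± 0.29, adjusted p = 0.00137, or 0.0098 with no level filter). That between 6499c4 and 2838c3 was 0.73 ± 0.29 (adjusted p = 0.0617), and it passed the threshold with a pseudocount of 0.1 FPKM (2.80, adjusted p = 0.00925), on reads with limma-voom (4.32, adjusted p = 0.00065) or without the G-1 library of 6499c4 (1.21, adjusted p = 0.00554). Without the vehicle library of 6499c4 it was 0.26 (adjusted p = 0.404), and without a library of 2838c3 it was 0.66 or 0.81 (adjusted p = 0.222 and 0.14). Over all alternatives its adjusted p was 0.00065 to 0.404. Between 6499c4 and 6419c5 it was −1.16 ± 0.29 (adjusted p = 0.0142), and this call was lost without the G-1 library of 6419c5 (−0.76, adjusted p = 0.144) or of 6499c4 (−0.69, adjusted p = 0.0621).

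Ptger4 encodes the EP4 receptor, which couples PGE2 to cAMP (chromosome 15, 5206661 to 5244187, minus strand). It had 8.92, 2.43 and 0.458 FPKM in the G-1 libraries of 6499c4, 6419c5 and 2838c3, against 4.99, 2.19 and 0.211 FPKM in vehicle libraries. Read counts were 238, 44 and 13 with G-1, against 152, 52 and 6 with vehicle. The 6499c4 libraries were the highest and the 2838c3 libraries were the lowest, the reverse of the order for Ptgs1. Ptger4 was higher in 6419c5 than in 2838c3 by 1.32 ± 0.19 (adjusted p = 0.00124) and higher in 6499c4 than in 2838c3 by 2.54 ± 0.19 (adjusted p = 4.98e-05). It was also higher in 6499c4 than in 6419c5 by 1.22 ± 0.19 (adjusted p = 0.0021). In reads the level of 6499c4 was 20.4 times that of 2838c3 (12.9 to 34.3) and 2.98 times that of 6419c5 (2.38 to 3.76). Ptger4 shares 82 exon bases with Ttc33 and 1015 with the pseudogene Gm15937, both on the opposite strand, and whether counting used strand is unstated in the labels.

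G-1 moved none of the 8 genes past the threshold. With line as a block, 0 of 8 were called at an adjusted p under 0.05, against 0.0279% of all genes (3 genes), and 0 of 8 had an unadjusted p under 0.05, against 10.1% of all genes. With limma-voom on reads again 0 of 8 were called, against 1.54% of all genes (165 genes). The median difference over the 8 was −0.03 on the log2 scale, beside −0.01 over all genes tested. With 3 lines the smallest p an exact two-sided sign-flip test over lines allows is 0.25, so that test cannot pass 0.05.

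Ptger4 had the largest G-1 difference of the 8, at 0.37 ± 0.16 (95% interval −0.01 to 0.74, adjusted p = 0.503), and was higher with G-1 in 3 of 3 lines, as were 15.4% of all genes and none of the other 7. Its exact sign-flip p was 0.25, the smallest possible. The read ratio of G-1 to vehicle was 1.79 in 6499c4 (exact 95% interval 1.45 to 2.21), 1.11 in 6419c5 (0.726 to 1.69) and 2.17 in 2838c3 (0.771 to 6.97). Counting error alone covers a ratio of 1 in 6419c5 and in 2838c3. In 6499c4 the interval excludes 1, as do those of 35.8% of all genes there, beside 16.6% in 6419c5 and 31.1% in 2838c3. With limma-voom the difference was 0.71 (adjusted p = 0.0554).

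Ptgs2 differed by 0.04 ± 0.07 under G-1 (95% interval −0.14 to 0.21, adjusted p = 0.891). Its read ratio of G-1 to vehicle was 0.981 in 6499c4 (0.848 to 1.13), 1.17 in 6419c5 (1.14 to 1.20) and 0.940 in 2838c3 (0.903 to 0.978). The lines with many Ptgs2 reads had small differences of opposite sign. Of genes with at least 5000 reads in both libraries of a line together, the interval excluded 1 for 45.7% in 6419c5 and 68.1% in 2838c3. For Ptgs1 the difference was −0.06 ± 0.08 (adjusted p = 0.830), and for Pla2g4a it was −0.01 ± 0.07 (adjusted p = 0.968).

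Among the synthase genes, the G-1 difference was −0.05 ± 0.12 for Ptges (adjusted p = 0.907), 0.06 ± 0.09 for Ptges2 (adjusted p = 0.871) and −0.07 ± 0.06 for Ptges3 (adjusted p = 0.737). In 2838c3 the read ratio of G-1 to vehicle was 1.22 for Ptges2 (1.02 to 1.47) and 0.887 for Ptges3 (0.810 to 0.971). Both intervals exclude 1, as do those of 31.1% of all genes there. In 6499c4 and 6419c5 the intervals of Ptges2 and Ptges3 cover 1. Hpgd gave −0.10 ± 0.23 (adjusted p = 0.903), with lines that went opposite ways: the read ratio was 0.254 in 6499c4 (0.0625 to 0.770) and 1.51 in 6419c5 (0.870 to 2.62), and 2838c3 had no reads. The Hpgd interval in 6499c4 excludes 1, as do those of 35.8% of all genes there. Hpgd had 4 to 31 reads per library in 6499c4 and 6419c5.

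**Figure D3:**
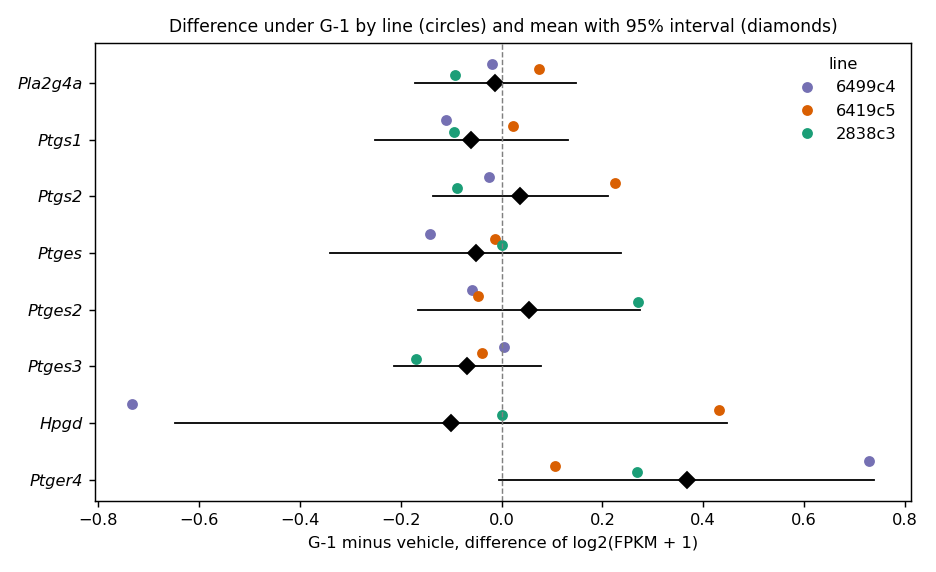
G-1 minus vehicle in log2(FPKM + 1) for each prostaglandin gene, with a circle per line and a diamond for the mean with its 95% interval from limma. The interval of every gene covers 0, and Ptger4 has all 3 circles above 0.

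The genes around these steps were taken from 7 lists, 112 genes in all, of which 58 passed the level filter. None of the 58 was called for G-1, and 52 were called in at least 1 line pair, where 75.4% of all genes were. In the list of arachidonate release and re-esterification 15 of 31 genes passed the filter and 14 were called between lines. Pla2g7, a phospholipase that cleaves oxidised lipids, averaged 1.37 FPKM in 6499c4, 3.53 FPKM in 6419c5 and 21.0 FPKM in 2838c3. Anxa1, an annexin known to restrain phospholipase A2, averaged 223, 581 and 411 FPKM in 6499c4, 6419c5 and 2838c3. It was lower in 6499c4 than in 6419c5 (log2 difference −1.38 ± 0.07, adjusted p = 1.2e-05). Under G-1 the list had a median difference of 0.01. Of all genes 15.4% were higher and 17.5% lower in all 3 lines, and of the 15 in this list 4 were higher and 3 lower. Among them were Pla2g12a at −0.37 ± 0.10 (adjusted p = 0.346) and Faah at 0.31 ± 0.12 (adjusted p = 0.474).

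Of 10 genes for other prostanoid synthases 4 passed the filter, and all 4 were called between lines, as were 75.4% of all genes. Ptgds, a prostaglandin D synthase, averaged 5.60, 6.18 and 19.6 FPKM in 6499c4, 6419c5 and 2838c3, and was lower in 6419c5 than in 2838c3 (log2 difference −1.52 ± 0.20, adjusted p = 0.000786). Gstm2, a glutathione transferase, averaged 6.30, 10.1 and 0.726 FPKM in 6499c4, 6419c5 and 2838c3, in the same order of lines as Ptges. Akr1b8, the most abundant of the 4, averaged 77.5, 113 and 186 FPKM in 6499c4, 6419c5 and 2838c3. It was lower in 6499c4 than in 2838c3 (log2 difference −1.25 ± 0.07, adjusted p = 9.81e-06). Its G-1 difference was 0.21 ± 0.05 (adjusted p = 0.346), with all 3 lines higher. Cbr1, a carbonyl reductase that can act on PGE2, averaged 6.37, 21.4 and 6.77 FPKM in 6499c4, 6419c5 and 2838c3. Under G-1 Cbr1 had 7.38, 24.3 and 8.89 FPKM in 6499c4, 6419c5 and 2838c3, against 5.35, 18.5 and 4.65 FPKM with vehicle, a difference of 0.53 ± 0.11 (adjusted p = 0.288) with all 3 lines higher.

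Transport genes separated the lines as well. Slco2a1, the prostaglandin uptake transporter, had 1.89, 24.1 and 46.1 FPKM in the G-1 libraries of 6499c4, 6419c5 and 2838c3, against 1.22, 25.3 and 46.7 FPKM in vehicle libraries. It was lower in 6499c4 than in 2838c3 (log2 difference −4.23 ± 0.13, adjusted p = 8.33e-07) and lower in 6499c4 than in 6419c5 (log2 difference −3.34 ± 0.13, adjusted p = 3.65e-06). Abcc4, an exporter that carries prostaglandins, averaged 16.0, 15.2 and 67.1 FPKM in 6499c4, 6419c5 and 2838c3. It was lower in 6419c5 than in 2838c3 (log2 difference −2.07 ± 0.09, adjusted p = 5.23e-06). Of the 7 genes of this list that passed the filter, 6 were called between lines, as were 75.4% of all genes. None of the 7 was called for G-1.

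Of 9 other prostanoid receptor genes only Ptgfrn, a regulator of the prostaglandin F receptor and not itself a receptor, passed the filter, and it was called in no comparison. Ptger1 averaged 0.569 FPKM and Ptger3 0.126 FPKM, and Ptger2, Ptgdr, Ptgir and Tbxa2r were listed at 0. Ptger4 had the highest FPKM of the prostanoid receptor genes in 6499c4 and 6419c5. In the lipoxygenase and leukotriene list 4 of 21 genes passed the filter, Alox5 was listed at 0, and Lta4h, the leukotriene A4 hydrolase, averaged 70.5, 63.0 and 31.7 FPKM in 6499c4, 6419c5 and 2838c3.

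**Figure D4:**
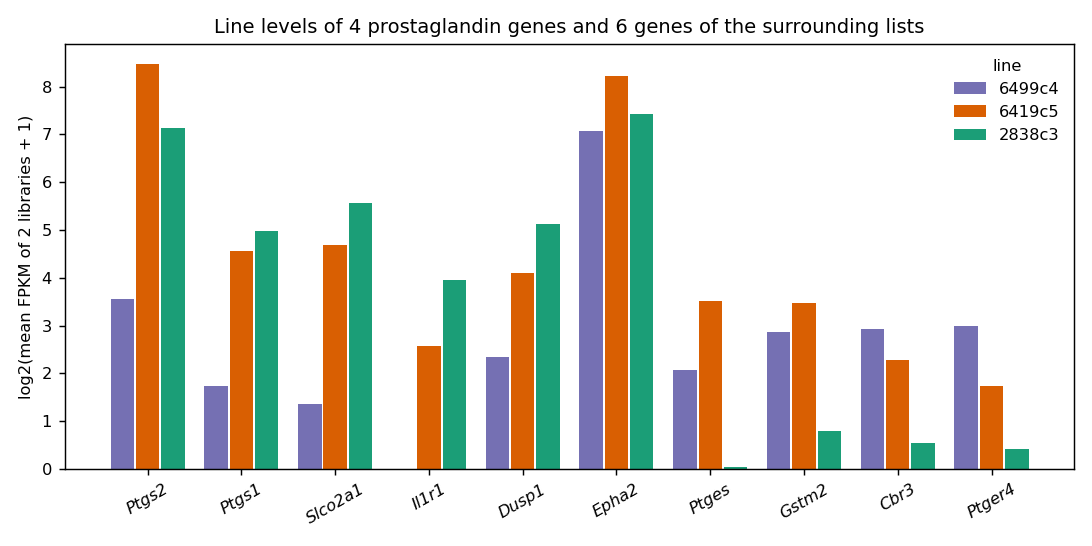
Mean level of 2 libraries per line, as log2(FPKM + 1), of 4 prostaglandin genes and of 6 genes from the surrounding lists in 6499c4, 6419c5 and 2838c3. The genes were chosen for display after their values were seen. Slco2a1 and Il1r1 are lowest in 6499c4, as are Ptgs1 and Ptgs2.

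Regulators of Ptgs2 were the list with the most measured genes, 16 of 19. Of these, 14 were called between lines, as were 75.4% of all genes. Il1r1, the interleukin 1 receptor, through which Ptgs2 can be induced, had 0, 5.25 and 14.1 FPKM in the G-1 libraries of 6499c4, 6419c5 and 2838c3, against 0, 4.67 and 14.7 FPKM in vehicle libraries. Il1r1 was highest in 2838c3 and Ptgs2 in 6419c5. In the same list Il1b was listed at 0 and Il1a averaged 0.728 FPKM, under the level filter. Il1a averaged 0.269, 1.83 and 0.0891 FPKM in 6499c4, 6419c5 and 2838c3, highest in 6419c5 as was Ptgs2. These are 5, 24 and 3 reads with G-1, against 4, 20 and 0 reads with vehicle. The part of Il1r1 and Il1a in the Ptgs2 result was not tested. Epha2, a receptor kinase, averaged 134, 299 and 172 FPKM in 6499c4, 6419c5 and 2838c3, the same order of lines as Ptgs2 with a smaller spread. Under G-1 this list had a median of −0.01, with 2 genes higher and 4 lower in all 3 lines, beside 15.4% and 17.5% of all genes. Celf2, an RNA-binding protein known to act on Ptgs2 mRNA, was at 11.9, 10.6 and 7.46 FPKM in the G-1 libraries of 6499c4, 6419c5 and 2838c3, against 13.8, 12.5 and 10.7 FPKM with vehicle, a difference of −0.29 ± 0.09 (adjusted p = 0.390). Cebpb, a transcription factor known to act on the Ptgs2 promoter, had 9.61, 13.1 and 8.96 FPKM in 6499c4, 6419c5 and 2838c3, against 3.60, 9.78 and 5.62 FPKM with vehicle. Its difference of 0.73 ± 0.16 was not called (adjusted p = 0.294). Cebpd, a related factor, differed by 0.69 ± 0.22 (adjusted p = 0.398).

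Genes known to respond to PGE2 through cAMP were read as a last list, with 11 of 14 measured. Of the 11, 10 were called between lines, as were 75.4% of all genes. Dusp1, a phosphatase, averaged 4.08, 16.2 and 33.7 FPKM in 6499c4, 6419c5 and 2838c3. Fos averaged 4.60, 14.8 and 4.11 FPKM in 6499c4, 6419c5 and 2838c3. Under G-1, 4 of the 11 were higher in all 3 lines and 0 were lower in all 3, beside 15.4% and 17.5% of all genes, with a median of 0.12. Id1 had the lowest adjusted p of the list: 150.0, 91.1 and 94.5 FPKM with G-1 in 6499c4, 6419c5 and 2838c3, against 94.4, 73.1 and 73.9 FPKM with vehicle, a difference of 0.44 ± 0.08 (adjusted p = 0.219). Areg, an EGF receptor ligand, differed by 0.36 ± 0.09 (adjusted p = 0.336).

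Profiles over the 6 libraries were compared as a description, by the root mean square difference of log2(FPKM + 1) after centring each gene. Nearest to Ptgs2 were Ckap4 (0.19), Mb21d2 (0.23) and Ces2g (0.24), the last 2 listed at 0 in 6499c4. Nearest to Ptgs1 were Bicc1 (0.16), Cp (0.17) and Pros1 (0.18). Nearest to Pla2g4a were Gata3 (0.06), Bcl6 (0.09) and Elmo1 (0.11), and nearest to Ptges were Myo7b (0.16), Ildr2 (0.17) and Srgap1 (0.20). Hpgd was nearest to Gap43 (0.18), P2ry2 (0.21) and Ccbl2 (0.22), and Ptger4 to Ncald (0.17), Ugt2b34 (0.20) and Pdzk1ip1 (0.24). Among the prostaglandin genes themselves Ptgs1 was the closest to Ptgs2, at 0.91 and rank 37 of 10322 genes, and Ptger4 the farthest, at 2.90 and rank 10159. The libraries of a line share that line, so these distances rest on 3 lines.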

How the data were processed

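Messenger RNA was sequenced from 3 murine PDAC lines, each treated with 250 nM G-1 or DMSO for 16 hours, with 1 library per line and treatment. The deposited table holds FPKM values for 24421 genes made by the authors. Per the labels, which list the authors' tools without saying what each did, STAR and DESeq2 were among them; genome build, annotation, strandedness and counting rule are unstated there. Whole reads were recovered from the equal steps of the FPKM values for all 15712 genes above 0 (tolerance 0.01 reads). The scale of the deposited FPKM follows median-of-ratios size factors, from which read totals deviated by up to 10.2%.

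Values were tested as log2(FPKM + 1) in limma 3.58.1 (R 4.3.3), two-sided, for the 10748 genes that averaged 1 FPKM or more, with a variance trend (2 residual and 5.35 prior degrees of freedom) and Benjamini-Hochberg adjustment over all of them at 0.05. Line was the block for G-1 against vehicle, and treatment was a covariate between lines. Both libraries of a line come from the same cell line, which pairs them; their deviations correlated at 0.882 (6499c4), 0.871 (6419c5) and 0.906 (2838c3). The labels do not say whether libraries came from independent cultures, and no treatment was repeated within a line. The p-values rest on how the G-1 difference varied between lines, with a spread drawn partly from other genes. That spread may be technical, and it also holds any G-1 response that differs between lines. Read ratios carry exact Clopper-Pearson 95% intervals on the authors' scale, and a count of 0 was given a floor of 3 reads per library. Intervals and floors cover counting error only. The procedures were tested on simulated data.

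The 8 genes were always named. From each surrounding list the rule named genes called for G-1, up to 3 with the largest G-1 difference of the same sign in all lines, and up to 3 called between lines with the largest range of line means. Not every gene that the rule named is described. The 3 nearest profiles were named for each of the 8 with a range of at least 1. Members and lists were chosen with earlier results of these data known. Receptor genes that the rule does not name are given as levels. Alternatives were a pseudocount of 0.1 FPKM, a level filter of 5 FPKM or none, quantile scaling and no variance trend. Others were limma-voom on reads, no line block and leaving out libraries. Gene positions are from GENCODE on GRCm38 and promoters from RefSeq on GRCm38.p6; all 8 genes matched in both.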

Additional observations from a re-analysis of the deposited data

Results flagged for a closer look

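The difference of Ptgs2 between G-1 and vehicle had opposite signs in the lines with the most Ptgs2 reads. Its read ratio of G-1 to vehicle was 1.17 in 6419c5 (exact 95% interval 1.14 to 1.20) and 0.940 in 2838c3 (0.903 to 0.978), and the log2 differences of these lines were 0.31 apart (6419c5 minus 2838c3). The difference between the lines was not tested, because each line has 1 library per treatment and the intervals cover counting error only. Among genes with at least 5000 reads in a line, the interval excluded 1 for 45.7% of genes in 6419c5 and 68.1% in 2838c3.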

How the results depend on the processing

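Without the replicate block, 0 genes and 0 of the 8 were called for G-1, as 0 of the 8 were with it; the comparisons between lines have no such fit. Genes called for G-1, 3 in the main test, numbered 1 with a pseudocount of 0.1 FPKM, 6 with a filter of 5 FPKM, 0 with no filter, 0 without the variance trend, 165 with limma-voom and 0 to 11 when a line was left out (0 without 6419c5, 11 without 6499c4). Leaving out a library gave 3430 to 5677 genes called between 6419c5 and 2838c3, lowest without the vehicle library of 6419c5, and 2612 to 4708 between 6499c4 and 6419c5, lowest without the G-1 library of 6419c5. A filter of 5 FPKM removed Ptges, Hpgd and Ptger4 from the tests and left 4 called between 6419c5 and 2838c3 and 3 between 6499c4 and 6419c5. Small differences changed sign when a line was left out. For G-1, Pla2g4a ranged over −0.056 to 0.028 (0.028 without 2838c3), Ptgs2 over −0.057 to 0.1002 (−0.057 without 6419c5), Ptges2 over −0.053 to 0.112 (−0.053 without 2838c3) and Hpgd over −0.366 to 0.22 (0.22 without 6499c4). Between 6499c4 and 2838c3, leaving out a library gave Ptges2 −0.16 to 0.168, with −0.16 without the vehicle library of 2838c3 and −0.08 without that of 6499c4. On reads with limma-voom the line differences of low genes were larger, 7.76 for Ptges and 2.76 for Ptger4 between 6419c5 and 2838c3. Where a line was left with 1 library, that library was assumed to vary like the others. The cause of these changes was not tested. Calls of Ptgs2, Pla2g4a, Ptges and Ptger4 between lines were kept under every alternative that tested them.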

Other observations

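Ptgs2os, an antisense non-coding gene chosen after its values were seen, is annotated on the minus strand of chromosome 1 from 150074873 to 150099963 (GRCm38), with its start 68 bases from that of Ptgs2 and inside the promoter window shown above. It had 0, 26 and 11 reads in the G-1 libraries of 6499c4, 6419c5 and 2838c3, against 3, 46 and 6 reads in vehicle libraries. The 6419c5 libraries were highest and the 6499c4 libraries lowest, the order of lines seen for Ptgs2. Its read ratio of 6499c4 to 6419c5 was 0.0305 (exact 95% interval 0.00615 to 0.0929), on 3 against 72 reads, beside 0.0307 for Ptgs2. Its read ratio of 6419c5 to 2838c3 was 5.75 (3.35 to 10.4), beside 2.49 (2.43 to 2.55) for Ptgs2. Ptgs2os averaged under 1 FPKM over the libraries, so no test was made, and whether counting used strand is unstated in the labels.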
